A study of Mus musculus with 17 samples.

Results

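The Krüppel-like factors outside the erythroid lineage were read from every probe set whose platform annotation gives exactly 1 of the symbols Klf2, Klf3, Klf4, Klf5, Klf6, Klf7, Klf9, Klf10 and Klf13. The rule found 22 of 45037 probe sets, which covered 8 of the 9 genes and 8 of the 17097 genes named on the array: Klf3 had 6 probe sets, Klf9 had 5, Klf6 and Klf13 had 3 each, Klf4 had 2, and Klf2, Klf5 and Klf10 had 1 each. Klf7 had 0 probe sets under this rule and was not analysed here. For each gene the brightest probe set on average is given array by array, and the others by their differences and calls, or array by array where they differ from it.

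Total RNA of sorted mouse cells had been hybridised to 17 Affymetrix perfect-match arrays in 6 groups. Macrophages came from wild-type spleens in 3 pools (sorted as CD11c-CD11b+MCSFR+, MCSFR being the M-CSF receptor) and granulocytes from the same source in 3 pools (CD11c-CD11b+Ly6C+MCSFR-). Bone marrow gave myelo-dendritic progenitors (MDPs), precursors of macrophages and dendritic cells, in 4 groups: 2 VENUS-negative pools (titled IRF8_neg_MDP), 3 pools labelled IRF8 knockout, 3 VENUS-positive pools (titled IRF8_PAC_MDP) and 3 wild-type pools. All MDPs shared the gate lineage-sca1-CD127-CD117+MCSFR+. VENUS is a fluorescent reporter protein, and the VENUS-negative, knockout-labelled and VENUS-positive pools all carry the genotype label IRF8-deficient. Mice were 6 to 10 weeks old, with 5 of them in each pool of spleen cells, knockout-labelled MDPs and wild-type MDPs. For the VENUS pools their number is not stated. The study asked how loss of IRF8, a transcription factor of the monocyte and dendritic lineage, changes MDP expression, and read that change against the mature cells. Because these are RNA levels of cell pools, a lower level in each cell and fewer cells that express the gene cannot be told apart.

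Levels are the authors' RMA values in log2 units, so 1 unit is a doubling, and levels of different probe sets are not set against each other. Array medians were 4.33 to 4.48 and lower quartiles 3.18 to 3.42, and no fold is given for a level near that quartile. Irf8 did not check the knockout label: its levels were 10.32, 10.42 and 10.18 in the knockout-labelled pools, against 10.27, 10.56 and 10.19 in the wild-type pools. In VENUS-negative MDPs Irf8 stood at 5.49 and 6.25, against 10.72, 10.81 and 11.10 in VENUS-positive MDPs. Pool 3 of the wild-type MDPs stood apart from its group. The mean of 8 measured neutrophil markers was 8.89 there, against 4.62 and 4.17 in wild-type pools 1 and 2, and the mean of 7 erythroid markers was 9.19, against 6.34 and 6.80. The comparisons with wild-type MDPs were therefore repeated without that pool, and the counts and named values that changed their call are given below with it left out. Granulocyte arrays carried all 7 NK-cell markers above their lower quartiles, with list means of 6.64, 6.76 and 7.40, against 4.43 to 5.39 in wild-type MDPs. VENUS-negative arrays had erythroid list means of 10.70 and 9.39, and means of 7.73 and 7.79 over 6 mast cell and basophil markers, against 6.06 to 6.63 and 4.27 to 4.46 in VENUS-positive arrays.

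Krüppel-like factors are transcription factors that bind GC-rich and CACCC-box DNA through zinc fingers at the end of the protein, while the rest of the protein recruits coactivators or corepressors. Klf2 restrains the activation of monocytes and macrophages and controls trafficking genes in T cells. Klf4 is needed for the formation of inflammatory monocytes, and Klf6 is an early-response factor that promotes inflammatory gene expression in macrophages. Klf3 is a repressor that works through the corepressor CtBP. Klf9, Klf10 and Klf13 belong to the members that recruit the corepressor Sin3A: Klf9 is induced by glucocorticoids, Klf10 is an early target of TGF-beta, and Klf13 activates the chemokine gene Ccl5 late in T-cell activation. Klf5 is an activator best known from epithelia.

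The 250 bases before the annotated start are shown for Klf2 and Klf6, whose levels ran closest together among the members, and for Klf4, which ran differently. They come from the RefSeq promoter table of the mouse build GRCm38.p6, which held a window for 7 of the 9 genes (Klf5 and Klf10 had no entry). The windows are chr8:72318812-72319061 on the plus strand for Klf2, chr13:5861239-5861488 on the plus strand for Klf6 and chr4:55532476-55532725 on the minus strand for Klf4. They are written 5′ to 3′, and capitals mark a MEF2-type palindrome, CACCC boxes and the GC-box core CCGCCC on either strand.
Klf2: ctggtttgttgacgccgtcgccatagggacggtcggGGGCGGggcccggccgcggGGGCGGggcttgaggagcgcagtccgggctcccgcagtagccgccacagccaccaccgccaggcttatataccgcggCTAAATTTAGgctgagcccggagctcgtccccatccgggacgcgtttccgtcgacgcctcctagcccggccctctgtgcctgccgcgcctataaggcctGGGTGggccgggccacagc
Klf6: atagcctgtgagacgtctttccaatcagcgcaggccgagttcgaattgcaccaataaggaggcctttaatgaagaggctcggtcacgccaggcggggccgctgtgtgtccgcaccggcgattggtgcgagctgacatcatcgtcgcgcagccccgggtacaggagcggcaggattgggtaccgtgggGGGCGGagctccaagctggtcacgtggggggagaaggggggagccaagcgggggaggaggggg
Klf4: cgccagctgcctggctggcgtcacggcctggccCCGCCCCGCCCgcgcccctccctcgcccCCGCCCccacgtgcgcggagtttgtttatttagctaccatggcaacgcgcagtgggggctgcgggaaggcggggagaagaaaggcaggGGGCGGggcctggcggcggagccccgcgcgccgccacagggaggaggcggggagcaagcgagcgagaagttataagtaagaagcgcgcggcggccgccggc

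The MEF2-type palindrome, CTAAA joined to its own reverse complement, began 118 bases before the Klf2 start. It was found in 13 of 32851 windows of the same length (0.0396%), in 1 member only, and was searched for after the sequence had been read. CACCC, the core of the CACCC box, had 1 match in Klf2 and 0 in Klf4 and Klf6, and 52.0% of all windows held it. CCGCCC, a GC-box core, had 2 matches in Klf2, 1 in Klf6 and 4 in Klf4, of which a pair overlapped, and 32.7% of all windows held it. The composite motif to which PU.1 and IRF proteins bind jointly, GGAA and after any 2 bases GAAA, and the interferon-response motif, GAAA repeated after any 2 bases, had 0 matches in all 7 member windows, and 2.3% and 2.98% of all windows held them. Both strands were searched, and a match or its absence describes only these letters in these windows.

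**Figure D1:**
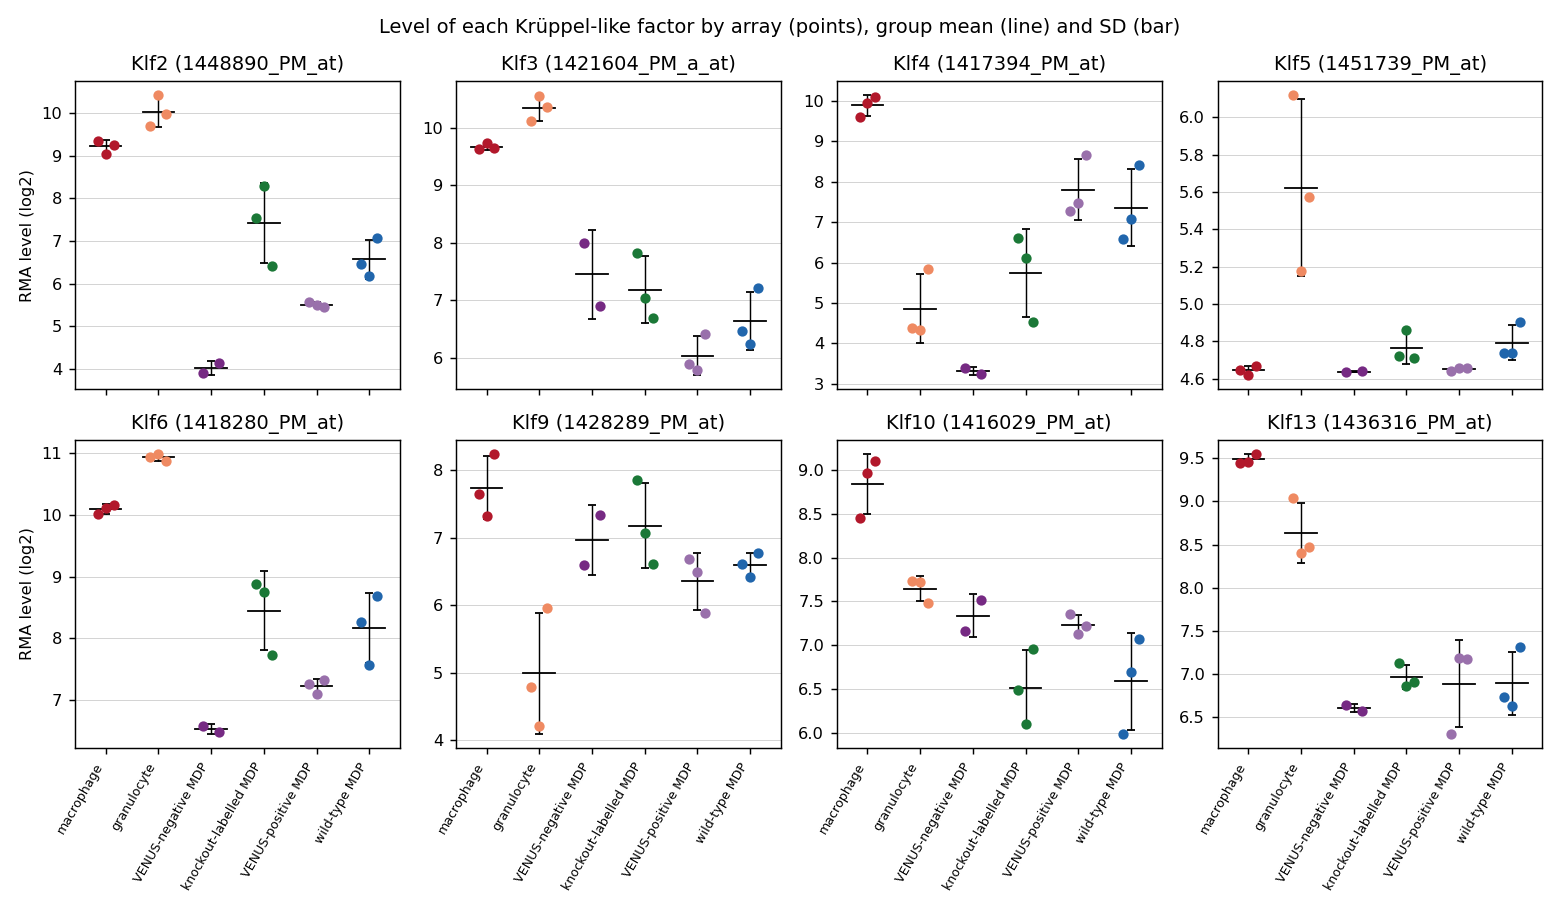
Each panel shows 1 member by its brightest probe set, with the RMA level in log2 units on its own vertical axis, 1 point per array, a line at the group mean and a bar of 1 SD. Klf2, Klf3, Klf5 and Klf6 were highest in granulocytes, and Klf4, Klf9, Klf10 and Klf13 in macrophages. The VENUS-negative pools had the lowest Klf2, Klf4 and Klf6 of all arrays.

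Klf2 (probe set 1448890_PM_at) had levels of 9.35, 9.05 and 9.26 in macrophages, against 9.70, 10.43 and 9.98 in granulocytes. VENUS-negative MDPs had 3.90 and 4.13, against 5.57, 5.50 and 5.46 in VENUS-positive MDPs. Knockout-labelled MDPs had 7.54, 8.30 and 6.42, against 6.46, 6.18 and 7.08 in wild-type MDPs. The 6 spleen arrays all lay above the 11 MDP arrays, the VENUS-negative pools lay below all the others, and the knockout-labelled and wild-type pools overlapped. The span between the highest and lowest group mean, 6.02 log2 units, exceeded that of 99.6% of all probe sets. Against wild-type MDPs, Klf2 was 6.26-fold higher in macrophages (log2 difference 2.65, SE 0.36, adjusted p = 9.604e-05) and 11.0-fold higher in granulocytes (3.46, SE 0.36, adjusted p = 3.053e-06). Without wild-type pool 3 these differences were 2.90 and 3.71, both called. Between the mature cells the difference of -0.81, macrophages minus granulocytes, did not pass (SE 0.36, adjusted p = 0.118).

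Among MDPs, Klf2 was lower in VENUS-negative than in knockout-labelled pools by -3.40 log2 units (SE 0.40, adjusted p = 0.000116) and lower than in wild-type pools by -2.56 (SE 0.40, adjusted p = 0.00178, or -2.31 with adjusted p = 0.00796 without wild-type pool 3). Both calls held when any 1 pool of either group was left out, but a fit of the 2 groups alone gave an adjusted p of 0.0514 for the first. Against VENUS-positive pools the arrays did not overlap and the difference was -1.49 (SE 0.40, 95% interval -2.35 to -0.63), with an adjusted p of 0.0512. That value fell below 0.05 under several alternatives, among them 0.0396 with 1 probe set per gene and 0.0254 in a fit of these arrays alone. It stayed uncalled when any 1 pool of either group was left out and with pool numbers as a block. Knockout-labelled minus wild-type pools gave 0.85 (SE 0.36, 95% interval 0.08 to 1.62, adjusted p = 0.538).

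Klf6 (1418280_PM_at) repeated the order of Klf2. It stood at 10.01, 10.12 and 10.16 in macrophages, against 10.94, 11.00 and 10.87 in granulocytes. The VENUS-negative pools were at 6.59 and 6.48, against 7.25, 7.10 and 7.32 in the VENUS-positive pools. Knockout-labelled pools were at 8.88, 8.75 and 7.72, against 8.27, 7.56 and 8.69 in wild-type pools. Within each of the first 2 pairs the arrays did not overlap, and in the last pair they did. Klf6 was 3.79-fold higher in macrophages than in wild-type MDPs (log2 difference 1.92, SE 0.28, adjusted p = 0.000184) and 6.77-fold higher in granulocytes (2.76, SE 0.28, adjusted p = 2.608e-06), and by 2.18 and 3.02 without wild-type pool 3, both called. VENUS-negative pools were lower than knockout-labelled ones (-1.92, SE 0.31, adjusted p = 0.00188) and wild-type ones (-1.64, SE 0.31, adjusted p = 0.00777), the second of which lost its call without VENUS-negative pool 2 (-1.59, adjusted p = 0.0553) and kept it without wild-type pool 3 (-1.38, adjusted p = 0.0273). The difference from VENUS-positive pools, -0.69, did not pass (adjusted p = 0.314). The probe sets 1433508_PM_at and 1427742_PM_a_at had the same highest and lowest groups and correlated with the first at 0.963 and 0.945 over the 17 arrays. Both were called higher in macrophages and granulocytes than in wild-type MDPs, by 1.58 to 3.80, and neither was called between any MDP groups.

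Klf4 (1417394_PM_at) was highest in macrophages and lowest in VENUS-negative MDPs. Macrophages had 9.61, 9.96 and 10.11, against 4.37, 4.34 and 5.84 in granulocytes. VENUS-negative MDPs had 3.37 and 3.23, against 7.28, 7.48 and 8.66 in VENUS-positive MDPs. In knockout-labelled MDPs the levels were 6.60, 6.11 and 4.52, against 6.57, 7.09 and 8.41 in wild-type MDPs. Macrophages lay above every other array, the VENUS-negative pools lay at the arrays' lower quartile, so that their differences are minimum sizes at this probe set, and the knockout-labelled pools reached just above the lowest wild-type pool. Macrophages exceeded granulocytes 33.0-fold (log2 difference 5.04, SE 0.58, adjusted p = 1.685e-05). Klf4 was also 5.79-fold higher in macrophages than in wild-type MDPs (2.53, SE 0.58, adjusted p = 0.00579) and lower in granulocytes than in wild-type MDPs (-2.51, SE 0.58, adjusted p = 0.0033). Without wild-type pool 3 those differences were 3.06 (adjusted p = 0.00234) and -1.98 (adjusted p = 0.0194).

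Within the progenitors Klf4 separated the VENUS groups. VENUS-negative pools were lower than VENUS-positive pools by at least the measured difference of -4.50 (SE 0.65, adjusted p = 0.000748), and the second probe set, 1417395_PM_at, gave -2.95 (SE 0.38, adjusted p = 0.000335). At that second probe set the levels were 4.15 and 4.09 in VENUS-negative pools, against 6.79, 7.21 and 7.20 in VENUS-positive pools. Both calls held when any 1 of the 5 pools was left out. Against wild-type pools the VENUS-negative differences were -4.05 as a minimum size (adjusted p = 0.00205) and -2.43 (adjusted p = 0.0019), and without wild-type pool 3 they were -3.53 and -1.93 and still called. The contrast with knockout-labelled pools was smaller in measured size, -2.44 as a minimum (adjusted p = 0.0458) and -1.95 (adjusted p = 0.00768), and depended on single pools. The first lost its call without knockout-labelled pool 1 (adjusted p = 0.157) or 2 (0.134) and without VENUS-negative pool 1 (0.168) or 2 (0.189), and the second without VENUS-negative pool 1 (0.0509) or 2 (0.0529). Knockout-labelled minus wild-type pools gave -1.61 (95% interval -2.86 to -0.37, adjusted p = 0.39) and -0.48 (adjusted p = 0.851). Without wild-type pool 3, which had the highest Klf4 of its group, these were -1.09 and 0.01, so their size depended on that array. Knockout-labelled pool 3 had the lowest Klf4 of its group (4.52 and 5.58), which also added to their size.

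Klf3, the CtBP-dependent repressor, was measured by 6 probe sets. The brightest, 1421604_PM_a_at, had 9.63, 9.73 and 9.65 in macrophages, against 10.11, 10.56 and 10.37 in granulocytes. In VENUS-negative pools it had 8.0 and 6.90, against 5.89, 5.78 and 6.41 in VENUS-positive pools. In knockout-labelled pools it had 7.83, 7.05 and 6.68, against 6.47, 6.23 and 7.20 in wild-type pools. Spleen arrays again lay above all MDP arrays, but here the VENUS-negative pools lay above the VENUS-positive ones. All 6 probe sets were called higher than in wild-type MDPs, by 1.36 to 3.22 log2 units in macrophages and by 2.62 to 3.86 in granulocytes. The lower ends, both from 1442920_PM_at, are minimum sizes, since its wild-type levels of 3.05 to 3.37 lay near the arrays' lower quartiles. In macrophages minus granulocytes 3 of the 6 were called, all lower in macrophages: 1441200_PM_at (-1.83, adjusted p = 0.00464), 1442920_PM_at (-1.27, adjusted p = 0.0115) and 1431630_PM_a_at (-1.04, adjusted p = 0.0327). The other 3 differed in the same direction, by -0.47 to -0.68, without passing.

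Among the progenitors, Klf3 passed in VENUS-negative minus VENUS-positive pools at 1421604_PM_a_at only, higher in the VENUS-negative pools (log2 difference 1.42, SE 0.37, adjusted p = 0.0438). Leaving out VENUS-negative pool 1 left 0.87 (adjusted p = 0.412), and the call was also lost without VENUS-positive pool 1 (0.108) or 2 (0.122), and with arrays centred on their medians (0.0606). The other 5 probe sets gave differences from -0.35 to 0.81 with no call. At 1429360_PM_at the pools scattered within both groups, with 7.07 and 5.25 in VENUS-negative pools, against 7.28, 5.34 and 5.79 in VENUS-positive pools.

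**Figure D2:**
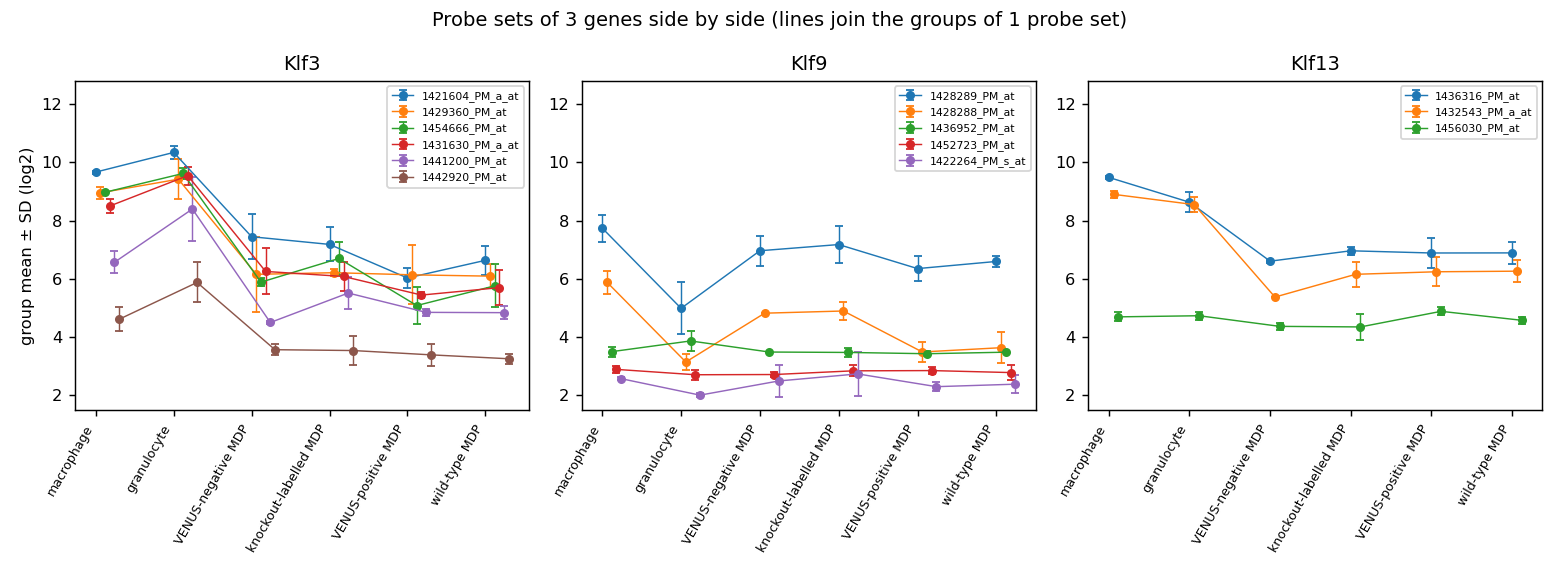
Group means with bars of 1 SD, in log2 units, are drawn for each probe set of Klf3, Klf9 and Klf13, with a line joining the groups of 1 probe set. The 6 Klf3 probe sets all peaked in granulocytes, 2 Klf9 probe sets peaked in macrophages with the other 3 at or under 4.27 on every array, and the Klf13 probe set 1456030_PM_at stayed between 3.83 and 5.02 where the others rose in spleen.

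Klf9 (1428289_PM_at), the glucocorticoid-induced member, was at 7.66, 7.32 and 8.25 in macrophages, against 4.79, 4.21 and 5.96 in granulocytes. MDP levels were 6.60 and 7.34 in VENUS-negative pools, against 6.69, 6.49 and 5.88 in VENUS-positive pools. They were 7.85, 7.07 and 6.61 in knockout-labelled pools, against 6.61, 6.41 and 6.77 in wild-type pools. Granulocytes were lowest, and the MDP groups overlapped. Macrophages exceeded granulocytes 6.76-fold (log2 difference 2.76, SE 0.42, adjusted p = 0.000209), and granulocytes lay below wild-type MDPs (-1.61, SE 0.42, adjusted p = 0.00724, or -1.52 with adjusted p = 0.0274 without wild-type pool 3). Macrophages minus wild-type MDPs gave 1.14 at this probe set (adjusted p = 0.0756).

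A dimmer Klf9 probe set, 1428288_PM_at, separated the progenitors. It read 5.91, 5.48 and 6.26 in macrophages, against 2.84, 3.32 and 3.27 in granulocytes. VENUS-negative pools read 4.81 and 4.83, against 3.16, 3.47 and 3.84 in VENUS-positive pools. Knockout-labelled pools read 4.55, 4.96 and 5.18, against 3.89, 3.03 and 3.99 in wild-type pools. Both VENUS-negative pools and all 3 knockout-labelled pools lay above the 6 VENUS-positive and wild-type pools, whose levels reached down to the arrays' lower quartiles, so that differences from them are minimum sizes. At this probe set macrophages were called higher than wild-type MDPs, with group means of 5.88 and 3.63. VENUS-negative minus VENUS-positive pools gave at least 1.33 (SE 0.31, adjusted p = 0.0226), and knockout-labelled minus wild-type pools gave at least 1.26 (SE 0.28, 95% interval 0.67 to 1.85), which did not pass at an adjusted p of 0.0642. The VENUS call was lost without VENUS-negative pool 1 (adjusted p = 0.11) or 2 (0.107) and without VENUS-positive pool 1 (0.0767) or 2 (0.0563). The knockout-labelled difference passed with the dim probe sets left out (0.0457) and with pool numbers as a block (0.0307), and its adjusted p without wild-type pool 3 was 0.0532. The brighter probe set gave 0.61 and 0.58 for the same 2 comparisons, neither called, and the correlation between both over the 17 arrays was 0.750.

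Klf10 (1416029_PM_at) was at 8.45, 8.97 and 9.11 in macrophages, against 7.74, 7.72 and 7.48 in granulocytes. It was at 7.16 and 7.51 in VENUS-negative pools, against 7.35, 7.13 and 7.22 in VENUS-positive pools. Knockout-labelled pools had 6.49, 6.10 and 6.95, against 5.99, 6.70 and 7.07 in wild-type pools. Macrophages stood above all other arrays, and every pair of MDP groups gave differences of 0.82 or less in size. Klf10 was 4.77-fold higher in macrophages than in wild-type MDPs (log2 difference 2.26, SE 0.27, adjusted p = 2.867e-05), 2.29-fold higher than in granulocytes (1.19, SE 0.27, adjusted p = 0.00426), and 2.09-fold higher in granulocytes than in wild-type MDPs (1.06, SE 0.27, adjusted p = 0.00594). These 3 calls held when any 1 pool was left out.

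Klf13 (1436316_PM_at) had 9.45, 9.46 and 9.55 in macrophages, against 9.04, 8.40 and 8.47 in granulocytes. It had 6.64 and 6.57 in VENUS-negative pools, against 6.31, 7.18 and 7.18 in VENUS-positive pools, and 7.13, 6.87 and 6.90 in knockout-labelled pools, against 6.74, 6.63 and 7.31 in wild-type pools. Mature cells and progenitors fell into 2 ranges with no overlap, and the MDP group means lay within 0.36 units of each other at this probe set. Against wild-type MDPs it was 6.04-fold higher in macrophages (log2 difference 2.59, SE 0.24, adjusted p = 3.281e-06) and 3.35-fold higher in granulocytes (1.74, SE 0.24, adjusted p = 4.787e-05). Without wild-type pool 3 these differences were 2.80 and 1.95, both called. Probe set 1432543_PM_a_at gave 2.64 and 2.29 for these comparisons and 1456030_PM_at gave 0.12 and 0.16, not called. Among progenitors 1432543_PM_a_at read 5.37 and 5.38 in VENUS-negative pools, against 5.72, 6.71 and 6.30 in VENUS-positive pools. The VENUS-negative pools lay below the other 9 MDP arrays, of which the lowest was at 5.67. Their differences of -0.87 from VENUS-positive (adjusted p = 0.134), -0.78 from knockout-labelled (adjusted p = 0.192) and -0.89 from wild-type pools (adjusted p = 0.129) did not pass. Without VENUS-positive pool 1 the first passed (-1.13, adjusted p = 0.0424). Macrophages minus granulocytes gave 0.85 at 1436316_PM_at (adjusted p = 0.0183). This call was lost without macrophage pool 3 (0.0594) or granulocyte pool 2 (0.0771) or 3 (0.0663).

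Klf5 (1451739_PM_at) stayed near the array median in all groups but one. Macrophages had 4.64, 4.62 and 4.67, against 6.12, 5.18 and 5.57 in granulocytes, and the 11 MDP arrays ran from 4.64 to 4.90. Granulocytes were therefore the only group that stood out. They exceeded wild-type MDPs 1.78-fold (log2 difference 0.83, SE 0.17, adjusted p = 0.0017), and macrophages lay below granulocytes (-0.98, SE 0.17, adjusted p = 0.000813). The granulocyte pools themselves ran from 5.18 to 6.12.

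Across the study, the count of called member probe sets was read against the share of all 45037 probe sets called at an adjusted p under 0.05. The mature cells moved most. In macrophages minus wild-type MDPs, 16 of 22 were called, all 16 higher and from 7 genes, where 18.9% of all probe sets were called and 9.61% were called higher. The median member difference was 2.25, and that of all probe sets 0.00. The same 16 were called without wild-type pool 3 and without each other pool in turn. In granulocytes minus wild-type MDPs, 17 of 22 from all 8 genes were called, 14 higher and 3 lower, beside 38.4% of all probe sets called, 20.4% higher and 17.9% lower. The 3 lower ones were both Klf4 probe sets and Klf9 1428289_PM_at. The median was 2.01, and 0.11 over all probe sets. Without wild-type pool 3, 16 were called, since Klf4 1417395_PM_at no longer passed (-0.59, adjusted p = 0.0937, against -1.09 with it). That call was also lost without granulocyte pool 1 (0.0711) or 2 (0.0519). Tissue, spleen or bone marrow, and cell type cannot be told apart in these comparisons, which share the wild-type MDP arrays. In granulocytes minus wild-type MDPs 6 of 7 NK-cell markers were also called higher, with and without wild-type pool 3.

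Macrophages minus granulocytes, both from spleen, gave 12 calls in 7 genes, 6 higher and 6 lower, beside 24.9% of all probe sets called, 13.6% higher and 11.3% lower. Among called probe sets the split ran by gene: Klf4, Klf9, Klf10 and Klf13 were higher in macrophages, and Klf3, Klf5 and Klf6 were lower. The Klf13 call came from its brightest probe set only. Klf13 1432543_PM_a_at gave 0.35 (adjusted p = 0.362), and 1456030_PM_at had means of 4.69 in macrophages and 4.73 in granulocytes. Klf6 1433508_PM_at, with means of 10.25 and 11.31, was not called. The dim, uncalled Klf9 1436952_PM_at ran against the other Klf9 calls, with means of 3.50 and 3.87. The Klf4, Klf5, Klf9 and Klf10 calls held when any 1 pool was left out, as did that of Klf3 1441200_PM_at. Klf6 1418280_PM_at (-0.84, adjusted p = 0.0429) lost its call without each pool in turn, at adjusted p-values of 0.076 (granulocyte pool 1) to 0.113 (macrophage pool 1). Klf6 1427742_PM_a_at (-1.38, adjusted p = 0.0141) lost it without granulocyte pool 2 (0.066). Klf3 1442920_PM_at lost its call without macrophage pool 1 (0.0606) or granulocyte pool 2 (0.0515) or 3 (0.0574). Klf3 1431630_PM_a_at lost it without any pool but granulocyte pool 1, at 0.0542 to 0.12. Without granulocyte pool 2, 7 calls stood. All 7 NK-cell markers were called lower in macrophages than in granulocytes (median -2.20), and the part of NK-cell RNA in the granulocyte levels was not tested.

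**Figure D3:**
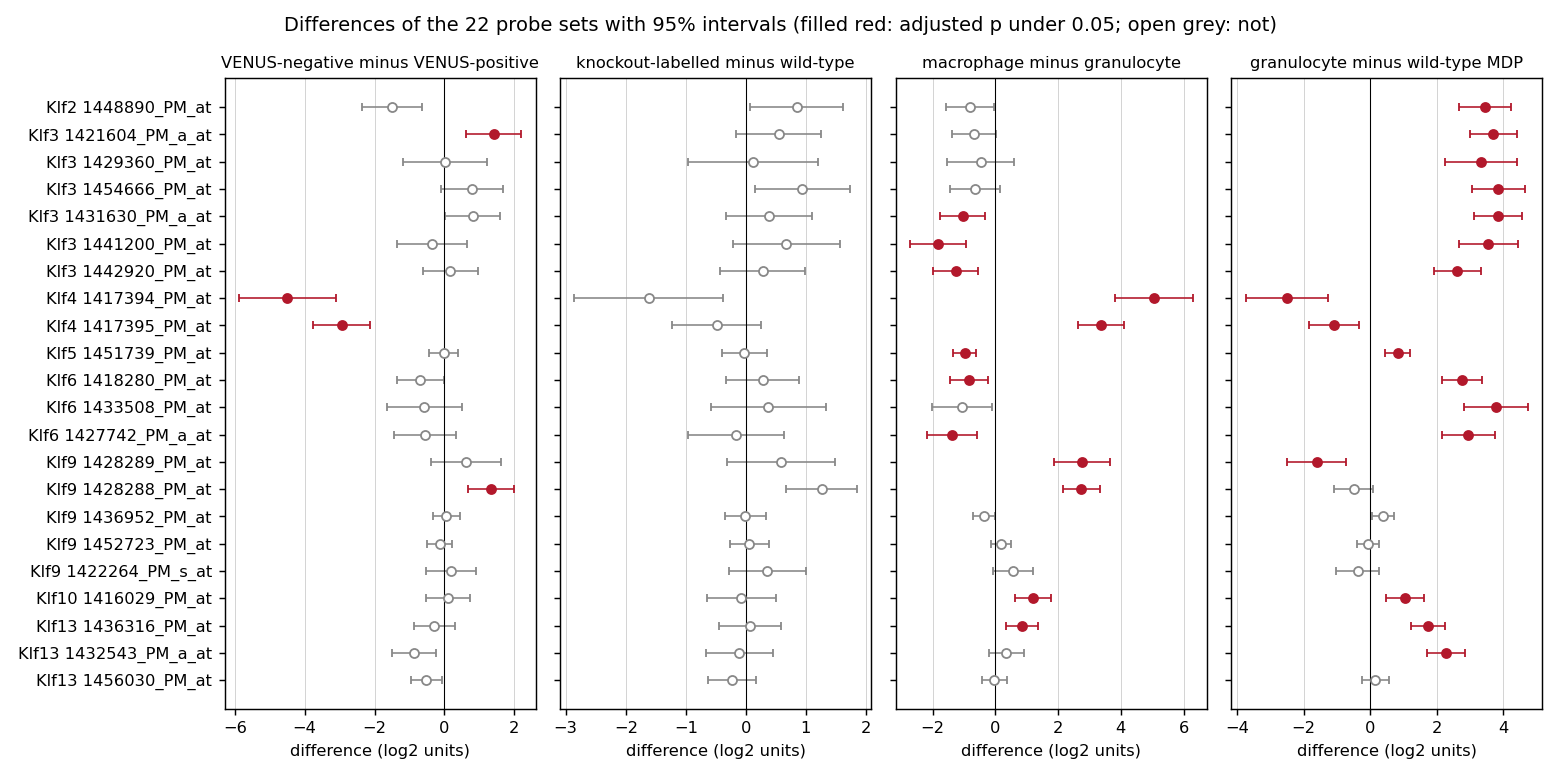
Differences in log2 units (horizontal axes, scaled per panel) are shown for the 22 probe sets with 95% intervals, in 4 comparisons; filled red points passed an adjusted p of 0.05. Both Klf4 probe sets lie at -4.50 (a minimum size) and -2.95 in VENUS-negative minus VENUS-positive MDPs and at 5.04 and 3.36 in macrophages minus granulocytes, and no probe set passed in knockout-labelled minus wild-type MDPs.

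VENUS-negative minus VENUS-positive MDPs gave 4 calls of 22, beside 4.44% of all probe sets. The 2 lower ones were both of Klf4 and the 2 higher ones were Klf3 1421604_PM_a_at and Klf9 1428288_PM_at, beside 2.24% of all probe sets lower and 2.2% higher. The median member difference was -0.08, and -0.01 over all. The 5 erythroid markers called, of 7, were all higher (Car1 by 6.08, Gata1 by 4.53), as were 4 of 6 mast cell and basophil markers. Of 8 monocyte and macrophage markers 4 were called, all lower: F13a1 (-5.95), Ly86 (-5.75), Csf1r (-2.93) and Cd68 (-1.70). Csf1r encodes the M-CSF receptor of the sort gate. The part of these marker differences in the Klf4 result was not tested.

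Knockout-labelled minus wild-type MDPs gave 0 calls among the 22 in limma's test, beside 0.575% of all probe sets, and 4 of 22 member probe sets had an unadjusted p under 0.05, beside 8.06% of all probe sets. They were Klf9 1428288_PM_at, Klf4 1417394_PM_at, Klf3 1454666_PM_at (0.94, adjusted p = 0.474) and Klf2. The count was 0 without each pool in turn, and 1 with pool numbers as a block or with dim probe sets left out. The median member difference was 0.20, and 0.01 over all. Of 7 erythroid markers 4 were called lower in the knockout-labelled pools, and 3 without wild-type pool 3. Of 8 neutrophil markers 1 was called higher there, and 3 without that pool. VENUS-positive minus wild-type MDPs also gave 0 calls, as did all 45037 probe sets (0%), and 3 of 22 member probe sets had an unadjusted p under 0.05, beside 5.91% of all probe sets: Klf6 1418280_PM_at (-0.95, 95% interval -1.55 to -0.34), Klf2 (-1.06, -1.83 to -0.29) and Klf10 (0.65, 0.07 to 1.22).

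The remaining 3 pairs of MDP groups were added after the data had been seen. VENUS-negative minus wild-type MDPs gave 5 calls, beside 3.99% of all probe sets: Klf2, both Klf4 probe sets and Klf6 1418280_PM_at lower (2.1% of all were lower), and Klf9 1428288_PM_at higher (at least 1.19, adjusted p = 0.0459). The 5 calls stood without wild-type pool 3. The Klf9 call was lost without wild-type pool 1 (0.0635) or 2 (0.134) or VENUS-negative pool 1 (0.18) or 2 (0.168), and 3 calls stood without VENUS-negative pool 2. VENUS-negative minus knockout-labelled MDPs gave 4 calls, all lower, of Klf2, Klf4 and Klf6, beside 4.74% of all probe sets called and 2.47% lower, and 2 stood when either VENUS-negative pool was left out.

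Knockout-labelled minus VENUS-positive MDPs gave 4 calls, all higher, beside 1.48% of all probe sets called and 0.83% higher. They were Klf2 (log2 difference 1.91, 3.76-fold, SE 0.36, adjusted p = 0.0149), Klf9 1428288_PM_at (at least 1.41, adjusted p = 0.0192), Klf3 1454666_PM_at (1.62, adjusted p = 0.0452) and Klf6 1418280_PM_at (1.23, adjusted p = 0.0462). At Klf3 1454666_PM_at the pools read 7.32, 6.62 and 6.17 in knockout-labelled MDPs, against 5.75, 5.05 and 4.45 in VENUS-positive MDPs. None of the 4 calls was kept in all fits without 1 pool. Without knockout-labelled pool 2 the count was 0 (Klf2 at 1.47, adjusted p = 0.0516), without knockout-labelled pool 1 or VENUS-positive pool 2 it was 1, without VENUS-positive pool 1 or 3 it was 2, and a fit of these arrays alone also gave 0. Immediate early genes, which cells induce within minutes of handling or stimulation, had 6 of 18 called higher and 0 lower in the same comparison. Their list mean was 7.38, 6.98 and 6.49 in knockout-labelled pools, against 5.88, 5.92 and 5.80 in VENUS-positive pools. Pool 3 of the knockout-labelled MDPs was the lowest of its group for these genes. It was also the lowest for the brightest probe sets of Klf2, Klf3, Klf4, Klf5, Klf6 and Klf9, but not of Klf10 and Klf13. The highest knockout-labelled pool was pool 1 for the immediate early genes and pool 2 for Klf2. The mean of 8 neutrophil markers was 6.96, 6.00 and 6.75 in knockout-labelled pools, against 5.41, 4.58 and 4.92 in VENUS-positive pools. Of these markers 1 was called higher and 0 lower. The part of the immediate early genes and of the neutrophil markers in these differences was not tested.

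**Figure D4:**
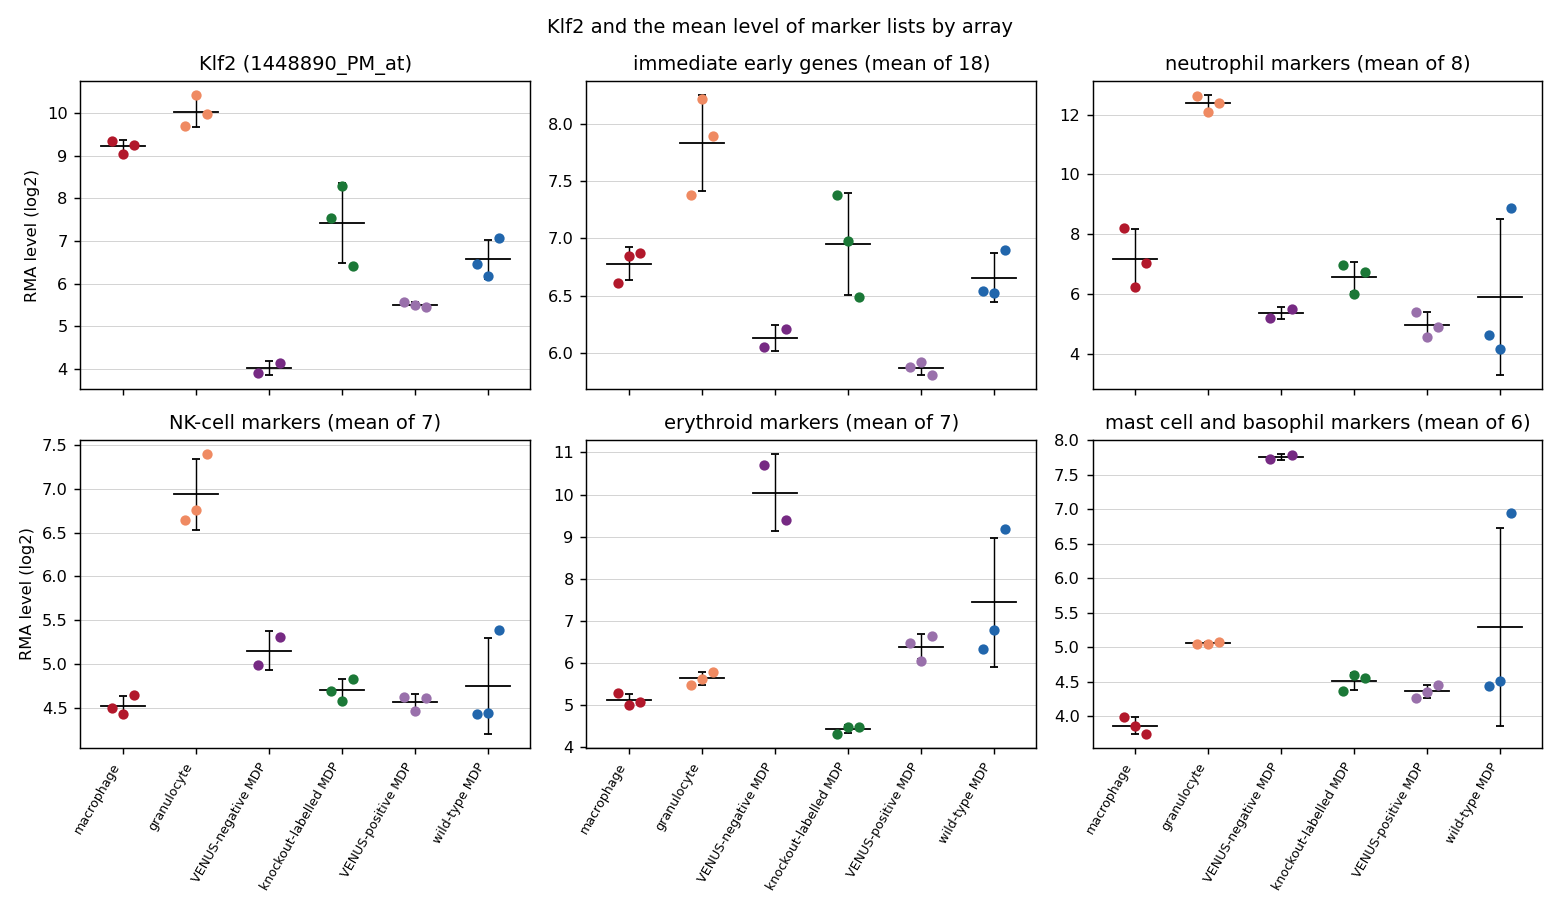
Panels show Klf2 and the mean level of 5 gene lists, in log2 units, with 1 point per array, a line at the group mean and a bar of 1 SD. Knockout-labelled pool 3 is lowest of its group for both Klf2 (6.42) and the immediate early genes (6.49). The highest of that group is pool 2 for Klf2 and pool 1 for the immediate early genes. Wild-type pool 3 stands above its group for the neutrophil, NK-cell, erythroid and mast cell lists.

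The order of group means, with neighbours tested in the same fit, differed between members. Klf2 and Klf6 shared the order granulocytes, macrophages, knockout-labelled, wild-type, VENUS-positive, VENUS-negative. For Klf2 only macrophages and knockout-labelled MDPs differed as neighbours (1.80, adjusted p = 0.00227), and for Klf6 those (1.65, adjusted p = 0.000682) and the mature pair. Klf3 ran granulocytes, macrophages, VENUS-negative, knockout-labelled, wild-type, VENUS-positive, and the step passed between macrophages and VENUS-negative MDPs (2.22, adjusted p = 0.000523). Klf4 ran macrophages, VENUS-positive, wild-type, knockout-labelled, granulocytes, VENUS-negative. Here only the first step passed (2.08, adjusted p = 0.0202). Klf9 ran macrophages, knockout-labelled, VENUS-negative, wild-type, VENUS-positive, granulocytes. Only its last step passed (1.37, adjusted p = 0.0191), although VENUS-positive pool 3 (5.88) lay below granulocyte pool 3 (5.96). Klf10 had macrophages above granulocytes and no called step below them, and Klf5 had granulocytes above wild-type MDPs and no called step below them. Klf13 had called steps between macrophages and granulocytes and between granulocytes and knockout-labelled MDPs (1.67, adjusted p = 7.404e-05). Of the 40 neighbouring steps 10 passed, and no step between 2 MDP groups was among them.

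Across the 17 arrays, which share the group differences, Klf2 and Klf6 correlated at r = 0.983. Klf6 was the second most similar of all genes to Klf2, and Klf2 the first to Klf6. Rgs2, a regulator of G-protein signalling, was nearest to Klf2 (0.983), and AB124611 also stood near Klf2 (0.971) and Klf6 (0.971). The next for Klf6 was Sgk1 (0.965), a glucocorticoid-induced kinase gene. Klf3 was closest to Stx11 (0.982), Oasl2 (0.974) and Zfp276 (0.971), and Klf13 to Ifitm3 (0.978), Evi2a (0.975) and Zbp1 (0.973). Klf4 was closest to Pld4 (0.959), Plxnb2 (0.917) and Lpxn (0.917), and its correlation with Klf2 was 0.27 and with Klf3 0.04. Klf10 was closest to Rab19 (0.941), Smagp (0.940) and Naip5 (0.932), Klf9 to Kxd1 (0.897), Tusc1 (0.890) and Wdr3 (0.888), and Klf5 to 1700047M11Rik (0.980), Ly75 (0.978) and Rasl11b (0.973). The correlations are descriptions over arrays of 6 groups.

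The gene lists below stand beside the shares of all probe sets called. Each listed gene is counted by its brightest probe set only. The shares cover all 45037 probe sets, dim ones and 15588 without a symbol included. List percentages and shares are therefore not measured alike, and a list near or above its share is a description only. The shares were 38.4% in granulocytes and 18.9% in macrophages minus wild-type MDPs, 24.9% in macrophages minus granulocytes and 4.44% in VENUS-negative minus VENUS-positive MDPs. Of the measured relatives of the members, other KLF and SP factors, 7.69%, 15.4%, 0% and 7.69% were called, in the same order. Only the last exceeded its share. Of 17 listed genes 13 were measured, and in VENUS-negative minus VENUS-positive MDPs only Klf1, the erythroid factor that activates globin genes, was called (4.39, SE 0.68, adjusted p = 0.00129), at 9.46 and 8.87 in VENUS-negative pools, against 5.41, 3.90 and 5.03 in VENUS-positive pools. Against wild-type MDPs Klf16 was lower in macrophages (-0.89) and granulocytes (-0.94), and Klf11 was higher in macrophages (0.80), but without wild-type pool 3 none of these 3 passed (adjusted p = 0.138, 0.0674 and 0.069). Without that pool 1 other relative was called in granulocytes minus wild-type MDPs, and it was higher there. In macrophages minus granulocytes and in knockout-labelled minus wild-type MDPs no relative was called. The list median in granulocytes minus wild-type MDPs was 0.16, and 0.10 over all genes.

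Of 14 listed cofactors and ubiquitin ligases of KLF proteins, 10 were measured. In granulocytes minus wild-type MDPs 40% of these were called, near the 38.4% of all probe sets. In macrophages 20% were called against wild-type MDPs and 20% against granulocytes, beside 18.9% and 24.9% of all probe sets. The CtBP genes through which Klf3 represses were lower in granulocytes than in wild-type MDPs (Ctbp2 -1.26, Ctbp1 -0.89), as was the histone deacetylase gene Hdac2 (-2.72), and Sin3b was higher (0.83). Ctbp2 (1.20) and Hdac2 (1.64) were higher in macrophages than in granulocytes. Hdac2 was lower in macrophages than in wild-type MDPs (-1.09), where the coactivator gene Crebbp was higher (0.52, not called without wild-type pool 3 at an adjusted p of 0.0852). Without that pool 1 other gene of the list was called higher in macrophages than in wild-type MDPs. Crebbp was the one cofactor called in VENUS-negative minus VENUS-positive MDPs (-1.12, SE 0.18, adjusted p = 0.0016), and none was called in knockout-labelled minus wild-type MDPs.

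Genes linked to Klf2 in lymphocytes and endothelium moved in both directions. Of 6 listed, 4 were measured. Thbd, the thrombomodulin gene that Klf2 activates in endothelium, was lower in knockout-labelled than in wild-type MDPs (-1.58, SE 0.21, adjusted p = 0.00205), as was the integrin gene Itgb7 (-1.80, SE 0.34, adjusted p = 0.0276), while Klf2 itself was not called there. Both calls held without wild-type pool 3 (Thbd -1.52, Itgb7 -1.34). In VENUS-negative minus VENUS-positive MDPs Thbd was lower (-1.62) and the lymphocyte egress receptor gene S1pr1 was higher (1.35). In macrophages minus wild-type MDPs Thbd (2.59) and Itgb7 (2.51) were higher, and in granulocytes minus wild-type MDPs only S1pr1 was called (0.80), joined by Itgb7 without wild-type pool 3 (1.13, adjusted p = 0.00575). Macrophages exceeded granulocytes in Thbd (2.52) and Itgb7 (1.84).

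Monocyte genes linked to Klf4 were measured for 9 of 10. In VENUS-negative minus VENUS-positive MDPs 5 were called, all lower: the chemokine receptor gene Ccr2 (-3.85), Csf1r (-2.93), Ly6c1 (-2.45) and the fractalkine receptor gene Cx3cr1 (-1.94) were the largest, with a list median of -1.70, and -0.01 over all genes. All 9 were called in macrophages minus granulocytes, 7 higher (Ccr2 by 6.05, Fcgr1 by 5.45) and 2 lower, Cd14 (-1.71) and Itgam (-1.23). In macrophages minus wild-type MDPs 8 were higher. Granulocytes minus wild-type MDPs split, with 3 higher (Itgam 4.76, Cd14 3.85, Nr4a1 2.00) and 3 lower (Ccr2 -3.54, Cx3cr1 -1.34, Ly6c1 -1.04), of which Ly6c1 did not pass without wild-type pool 3 (-0.85, adjusted p = 0.139). Ccr2 was the only one called in knockout-labelled minus wild-type MDPs, and it was higher there (2.36, SE 0.24, adjusted p = 0.000293, or 2.62 without wild-type pool 3 and called), where Klf4 was not called. Csf1r, Cd14 and Cd68 also stand among the 8 monocyte markers above. Csf1r (M-CSF receptor), Itgam (CD11b) and Ly6c1 (Ly6C) encode antigens of the sort gates. Where the gates of the compared groups differ in such an antigen, a call of its gene cannot be told apart from the sorting.

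The TGF-beta genes around Klf10, 12 of 13 measured, had no call between any MDP groups, except Tgfbr2 in VENUS-negative minus wild-type MDPs without wild-type pool 3 (1.29, adjusted p = 0.0394). In macrophages minus wild-type MDPs 4 were higher: the receptor genes Tgfbr2 (2.42) and Tgfbr1 (1.45), the repressor gene Skil (1.76) and the ubiquitin ligase gene Smurf2 (0.55). In granulocytes minus wild-type MDPs Tgfbr2 (2.38), Skil (1.76) and Smurf1 (0.67) were higher, and Tgif1 (-1.79) and Tgfb1 (-1.15) lower. These calls were 41.7% of the measured genes, near the 38.4% of all probe sets, and the macrophage calls were 33.3%, beside 18.9%. Without wild-type pool 3, Tgfbr1 (adjusted p = 0.0752) and Smurf2 (0.107) did not pass in macrophages, where Smad2 did (0.80, adjusted p = 0.00876), nor Smurf1 (0.074) in granulocytes. Tgif1 (2.06) and Tgfb1 (1.82) were higher in macrophages than in granulocytes.

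The glucocorticoid response genes around Klf9 were measured for all 7. In granulocytes minus wild-type MDPs 6 were higher, led by Sgk1 (4.42), Tsc22d3 (4.19), Dusp1 (3.34) and Per1 (2.28), although Klf9 itself was lower there at its brightest probe set. In macrophages minus wild-type MDPs 5 were higher, led by Tsc22d3 (3.73), Sgk1 (3.58), Zbtb16 (1.98) and Per1 (1.85), and these 6 and 5 calls held without wild-type pool 3. Dusp1 (-2.49) and the receptor gene Nr3c1 (-0.90) were lower in macrophages than in granulocytes. In VENUS-negative minus VENUS-positive MDPs, Zbtb16 (2.00) and Dusp1 (1.62) were higher, and none of the 7 was called in knockout-labelled minus wild-type MDPs.

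Immediate early genes, the class to which Klf2, Klf4, Klf6 and Klf10 are often counted, were measured for 18 of 19. In granulocytes minus wild-type MDPs 11 were higher and 3 lower, with a list median of 1.48, and 0.10 over all genes: Ier3 (3.63), Atf3 (3.47) and Ier5 (3.36) rose, and Myc fell by 5.17. Of the 14 calls 13 held without wild-type pool 3, the exception being Fosb (-2.18, adjusted p = 0.0517). In macrophages minus granulocytes 2 were higher and 10 lower, among them Ier3 (-3.72), Egr1 (-2.70) and Dusp1 (-2.49), with Nr4a1 (2.91) higher. In macrophages minus wild-type MDPs 5 were higher (Nr4a1 4.91) and 3 lower (Myc -3.91, Fosb -3.64). Fosl2 was the only one called in knockout-labelled minus wild-type MDPs (1.42, SE 0.17, adjusted p = 0.00112, or 1.61 without wild-type pool 3 and called), and in VENUS-negative minus VENUS-positive MDPs it was lower (-1.79), while Dusp1 (1.62) and Ier3 (1.59) were higher. In knockout-labelled minus VENUS-positive MDPs 6 were higher, led by Fos (2.60), Dusp1 (2.42), Ier3 (1.93) and Fosl2 (1.83). Dusp1 and Nr4a1 each stand in 1 other list as well.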

How the data were processed

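The authors deposited log2 values per probe set, for which the submitters' processing notes name Affymetrix Expression Console and RMA, a method that corrects background, equalizes array distributions and summarizes probes. No version is stated, nor which arrays were processed together. Platform annotation gave 1 symbol for 28898 of 45037 probe sets, and 0 array pairs held identical values.

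One limma 3.58.1 fit (R 4.3.3, lmFit and eBayes, two-sided) to the 17 arrays, estimating 1 mean for each group, had 11 residual degrees of freedom. P-values were adjusted by Benjamini-Hochberg over all 45037 probe sets and called under 0.05. No probe set was filtered. Pools are the replicates, so the p-values reflect differences between pools, and few arrays limit precision. The step was tested on simulated data.

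Members and gene lists were chosen with earlier results of these data known. Named are all member probe sets, up to 4 called genes per list and comparison with the largest difference (other genes were chosen after their values were seen), and the 3 genes with the highest Pearson r to each member. Same-numbered pools did not deviate together (correlations of -0.07 to 0.13), so pool numbers were not used as pairs in the main fit. These correlations cannot show whether same-numbered pools share mice. Alternatives were fits of 2 groups, a pool-number block, leaving out pools, 1 probe set per gene, a dim filter, median centring and eBayes with trend.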

Additional observations from a re-analysis of the deposited data

How the results depend on the processing

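Each member difference was recomputed under 10 to 13 alternatives, 2355 values in all: 2236 kept their side of the threshold, 97 lost a call, 22 gained one and 0 called values changed sign, while 106 uncalled values did. For member probe sets, 1 probe set per gene (8 tested) gave 8 calls in granulocytes minus wild-type MDPs, 6 in macrophages minus wild-type MDPs, 6 in macrophages minus granulocytes, 3 in VENUS-negative minus wild-type and 2 in knockout-labelled minus VENUS-positive MDPs, by its construction. Fits of the 2 groups alone gave 0 calls in knockout-labelled minus VENUS-positive, 1 in VENUS-negative minus knockout-labelled and 2 in VENUS-negative minus wild-type MDPs; median centring gave 2 in knockout-labelled minus VENUS-positive MDPs, and the dim filter 1 in knockout-labelled minus wild-type MDPs. The cause was not tested. The replicate block by pool number over all arrays gave 2 calls in knockout-labelled minus VENUS-positive and 1 in knockout-labelled minus wild-type MDPs, and within the 2 groups, a fit added after seeing the data, 0 in knockout-labelled minus VENUS-positive MDPs and in each VENUS-negative comparison, where it leaves few degrees of freedom. Whether pool numbers pair the samples could not be decided.

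For listed genes, fits of the 2 groups alone gave 4 calls in knockout-labelled minus VENUS-positive, 2 in knockout-labelled minus wild-type, 6 in VENUS-negative minus VENUS-positive and 6 in VENUS-negative minus wild-type MDPs, each among the 9, 4, 13 and 13 genes called over all arrays. With the replicate block added to these fits the count was 0 in each, and also 0 in VENUS-negative minus knockout-labelled MDPs, against 8 in the fit of those 2 groups without the block and 12 over all arrays.

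Leaving out 1 pool gave member counts of 16 to 18 in granulocytes minus wild-type MDPs, 16 in macrophages minus wild-type MDPs, 7 to 11 in macrophages minus granulocytes, 0 to 3 in knockout-labelled minus VENUS-positive, 2 to 4 in VENUS-negative minus knockout-labelled, 2 to 4 in VENUS-negative minus VENUS-positive and 3 to 5 in VENUS-negative minus wild-type MDPs. Listed genes gave 32 to 37, 23 to 27, 23 to 29, 6 to 11, 8 to 15, 9 to 14 and 8 to 11 in the same comparisons and 3 to 4 in knockout-labelled minus wild-type MDPs. Called neighbouring steps numbered 7 to 13. The 3 dim Klf9 probe sets lie near the arrays' lower quartile, so differences there could not be resolved.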
